A study of Mus musculus with 31 samples.

Results

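Masseter muscle (MM), the jaw-closing muscle of the cheek, was compared at 2 times after a high-dose collagenase injection: 6 days post-Col (6d) and an earlier time (early). Collagenase type 2 (Col) is a crude bacterial enzyme preparation that digests the collagen mesh between muscle fibers. The comparison was defined by the sample labels alone. It held 7 libraries of the 31 in the series, 3 at 6d and 4 at early, with 1 library per mouse. All 7 came from the MM of male C57BL/6J mice given 10U of Col, and the labels describe the material as whole muscle, so every cell type of the dissected tissue was included. No mouse carried a transgene or deletion. The labels place the early group at 2 days and a late group at 12 days, while the study's text gives other days for both, so the groups are called early and late here. Titles of the 6d libraries are written in another style than those of the early and late libraries, and no date of preparation or sequencing was given, so a difference of handling and a difference of time cannot be told apart. Levels in 3 vehicle libraries and 4 late libraries of the same Col experiment are given beside the results as description and entered no test.

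Injured skeletal muscle passes through an inflammatory phase, in which damaged fibers and resident cells release chemokines that draw neutrophils and then monocytes, and a repair phase. In the repair phase satellite cells, the muscle stem cells marked by Pax7, divide, switch on the transcription factors Myod1 and myogenin, and fuse into new fibers that first make embryonic forms of the contractile proteins. Macrophages clear debris and secrete growth factors such as Igf1, while fibroblasts lay down new matrix. In bulk tissue, fewer cells of a type and less RNA per cell cannot be told apart.

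The shallowest library held 15759560 counts on genes and the deepest, early replicate 4, held 27573542, around a median of 18063685. Adult sarcomere genes took 6.996 to 9.09% of counts at early and 8.70 to 12.9% at 6d, against 14.1 to 18.8% in vehicle. Several libraries stood apart. Salivary gland genes, which muscle does not make, took 14.4, 16.7, 0.0102 and 21.7% of counts in early replicates 1 to 4 but 0.00432 to 0.00994% at 6d. On the first principal component, which held 53.6% of the variance of the 7 libraries, early replicate 3 lay at 0.13. Early replicates 1, 2 and 4 lay at -66.2 to -51.6 on it, and 6d at 46.6 to 64.9. Early replicate 4 lay apart from the other early libraries on the second component, which held 28.3% of the variance, and had low levels of many inflammation genes. In the late group, replicate 4 resembled 6d for many genes given below while replicates 1 to 3 did not. Reads left uncounted because they matched more than 1 gene model came to 0.680 to 0.883% of the counts on genes in the early, 6d and late libraries and to 0.166 to 0.236% in vehicle. The part of this difference in levels set against vehicle was not tested.

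At 14513 genes tested, 439 DEGs were higher at 6d and 342 were lower, so that 3.02% of genes were called higher, 2.36% lower and 5.38% in either direction. A gene was called a DEG where edgeR's quasi-likelihood test gave a Benjamini-Hochberg adjusted p below 0.05 over all genes, the groups differed more than 2-fold, and the mean RPKM (counts scaled to exon length and library size) of either group exceeded 1. The 2 groups did not overlap for 12.4% of genes in the higher direction and 11.8% in the lower. Of the higher DEGs 14 met the count minimum through the 6d libraries alone, and of the lower DEGs 66 met it through the early libraries alone, so that these had to differ. All 439 higher DEGs and 302 of the 342 lower DEGs had groups that did not overlap. Levels are CPM, counts relative to library totals scaled by edgeR's TMM factors, and every fold change is 6d over early on the log2 scale with its standard error (SE).

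These counts depended on single mice. Leaving out early replicate 4 gave 867 higher and 674 lower DEGs, which included 426 and 294 of those above. Leaving out 6d replicate 2 gave 99 and 24, 6d replicate 1 gave 167 and 32, early replicate 2 gave 178 and 83, early replicate 1 gave 232 and 140, and 6d replicate 3 gave 296 and 85. Of the 439 higher DEGs, 98 were called in all 7 of these fits, as were 18 of the 342 lower DEGs. With library totals in place of TMM factors the split was 572 higher and 260 lower, or 68.8% higher against 56.2%, and the median change of all genes moved from -0.04 to 0.14.

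**Figure D1:**
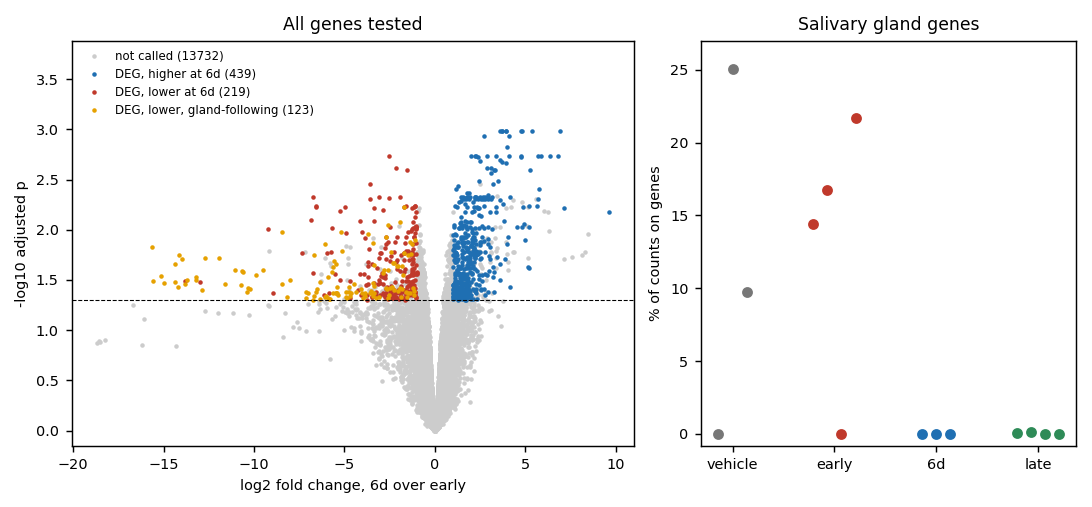
Left, each point is 1 of the 14513 genes tested, with the log2 fold change of 6d over early on the x axis and -log10 of the adjusted p on the y axis, and the dashed line at an adjusted p of 0.05. Right, the percent of counts taken by salivary gland genes, 1 point per mouse: 123 of the 342 lower DEGs (orange) follow the gland genes in other libraries, and no 6d library holds more than 0.00994%.

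Embryonic and regeneration isoforms of muscle proteins rose at 6d more than any other list examined. Of 24 members tested, 16 were DEGs higher at 6d and none was lower. The median log2 fold change was 3.04, and that of all genes -0.04. Without early replicate 4 the count was 17 higher and 2 lower, and leaving out any other mouse gave 12 to 15 higher and none lower. With the gland score as a covariate 3 were higher. Myh3, the embryonic myosin heavy chain (mm9 chr11:66891802-66915793, + strand), had 6.97, 9.38, 8.50 and 3.51 CPM in the early mice and 948, 1036 and 556 CPM at 6d. Every 6d mouse was far above every early mouse, and the vehicle mice, at 21.5 to 28.8 CPM, lay above all early mice. Its log2 fold change was 6.90 ± 0.44 (SE, adjusted p = 0.00103). Late replicates 1 to 3 were back at 10.4 to 20.3 CPM, while late replicate 4 had 193 CPM.

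Other isoforms of the developing fiber also rose from early to 6d. Tnnt1, the slow troponin T, rose from 5.99 to 11.5 CPM at early to 250 to 540 CPM at 6d (5.35 ± 0.37, adjusted p = 0.00103). Tnni1, the slow troponin I, went from 1.92 to 6.05 CPM to 104 to 265 CPM (5.69 ± 0.49, adjusted p = 0.00185). Sln, which encodes sarcolipin, a small inhibitor of the calcium pump, rose from 1.70 to 7.04 CPM to 110 to 370 CPM (5.71 ± 0.67, adjusted p = 0.00497). The perinatal myosin Myh8 differed less, with 160 to 749 CPM at early and 1688 to 3733 CPM at 6d (2.79 ± 0.56, adjusted p = 0.0278). Early replicate 4 gave the highest early value of Myh8, and without it the log2 fold change was 3.36.

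Several fetal genes of the same list were chosen for mention after their values were seen. Actc1, the cardiac actin made by young fibers, was at 12.9 to 39.4 CPM in the early mice, below all vehicle mice at 85.8 to 184 CPM, and reached 597 to 657 CPM at 6d (4.75 ± 0.40, adjusted p = 0.00185). Tnnt2, the cardiac troponin T, rose from 0.842 to 6.43 CPM to 87.7 to 214 CPM (5.23 ± 0.64, adjusted p = 0.00586). The imprinted pair Igf2 and H19 rose together. Igf2, a fetal growth factor, went from 24.1 to 39.8 CPM to 334 to 708 CPM (4.08 ± 0.33, adjusted p = 0.00185), and the noncoding RNA H19 from 365 to 501 CPM to 4757 to 7585 CPM (3.71 ± 0.33, adjusted p = 0.00211).

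Among satellite cell and myogenic regulators, 9 of 25 members tested were higher at 6d and 1 was lower, with a median of 0.34. Leaving out 1 mouse gave 4 to 10 higher, fewest without 6d replicate 2. Pax7 was at 0.314, 1.34, 0.584 and 2.43 CPM in the early mice and at 9.63, 9.42 and 7.56 CPM at 6d (2.90 ± 0.59, adjusted p = 0.0283). The groups did not overlap, and the vehicle mice, at 3.26 to 8.02 CPM, lay between them with 1 mouse inside the 6d range. Myod1, which commits the cells to muscle, was near equal, at 100.2 to 184 CPM at early and 109 to 148 CPM at 6d (-0.16 ± 0.23, adjusted p = 0.719). Myogenin, Myog, which drives differentiation, had 112, 85.1, 123 and 18.9 CPM at early and 258, 331 and 230 CPM at 6d. The groups did not overlap, yet the change of 1.69 ± 0.53 did not pass the test (adjusted p = 0.0910). Without early replicate 4 it did (1.35, adjusted p = 0.00267), as it did with DESeq2 (adjusted p = 0.0138).

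The 2 genes that encode the muscle fusion proteins rose strongly. Tmem8c, which encodes myomaker, was at 2.45, 1.74, 4.83 and 0.328 CPM at early and at 145, 133 and 74.7 CPM at 6d (5.65 ± 0.69, adjusted p = 0.00586), with vehicle at 0.112 to 0.542 CPM. Gm7325, which encodes myomixer, was at 0.889 to 1.54 CPM at early and at 24.8 to 36.7 CPM at 6d (4.84 ± 0.26, adjusted p = 0.00103). Megf10, a satellite cell receptor, rose from 1.95 to 3.14 CPM to 29.0 to 61.0 CPM (4.08 ± 0.30, adjusted p = 0.00116). Gm7325 and Megf10 were picked after their values were seen. Sdc4, a heparan sulfate proteoglycan of satellite cells and other cells, was the lower member, with 91.8 to 146 CPM at early and 38.8 to 69.5 CPM at 6d (-1.09 ± 0.24, adjusted p = 0.0379).

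The gamma subunit gene of the fetal acetylcholine receptor, which spreads over fibers that lack a nerve contact or are newly formed, rose at 6d. Of 20 neuromuscular junction and denervation genes tested, 4 were higher and none was lower (median 0.64), and the count was 8 without early replicate 4 and 1 without early replicate 2 or 6d replicate 2. Chrng, the fetal gamma subunit (mm9 chr1:89102386-89108410, + strand), was at 3.33, 3.42, 3.19 and 0.983 CPM at early and at 108, 233 and 133 CPM at 6d (5.87 ± 0.48, adjusted p = 0.00185). All 4 early mice were above all 3 vehicle mice, which had 0.112 to 0.325 CPM. Chrna1, the alpha subunit of fetal and adult receptors, had 194, 117, 134 and 27.1 CPM at early and 325, 669 and 509 CPM at 6d. Its groups did not overlap, but the change of 2.09 ± 0.57 did not pass (adjusted p = 0.0617). It passed without early replicate 4 (adjusted p = 0.00531) and with DESeq2 (adjusted p = 0.00252). Musk, the kinase that organizes the junction, was at 16.5 to 115 CPM at early and 29.9 to 76.4 CPM at 6d (-0.12 ± 0.58, adjusted p = 0.922).

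The stretches before the starts of these receptor genes are shown because both genes were higher in every 6d mouse than in every early mouse. They are RefSeq sequences of build GRCm38.p6, whose coordinates differ from the mm9 positions above, and run 5′ to 3′ over the 250 bases upstream of the annotated start. Capitals mark CAGCTG, the form of the E-box that myogenic factors are known to bind, which reads the same on both strands.
Chrng chr1:87205561-87205810 (+ strand): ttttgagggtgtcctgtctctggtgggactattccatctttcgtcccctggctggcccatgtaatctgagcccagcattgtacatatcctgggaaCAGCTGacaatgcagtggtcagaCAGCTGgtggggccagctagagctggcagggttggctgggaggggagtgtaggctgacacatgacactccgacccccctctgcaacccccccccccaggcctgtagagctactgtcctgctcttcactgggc
Chrna1 chr2:73580339-73580588 (- strand): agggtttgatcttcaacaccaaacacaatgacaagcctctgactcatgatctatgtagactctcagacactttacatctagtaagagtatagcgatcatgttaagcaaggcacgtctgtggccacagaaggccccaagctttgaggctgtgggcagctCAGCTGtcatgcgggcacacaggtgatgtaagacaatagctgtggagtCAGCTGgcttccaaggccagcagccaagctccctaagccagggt
Each stretch holds 2 matches, whose first bases lie 155 and 132 bases before the start of Chrng and 92 and 44 bases before that of Chrna1. The motif occurs in 13% of the 32851 windows in the table. By gene, at least 1 window held it for 68 of the 295 higher DEGs with a window (23.1%), 31 of 227 lower DEGs (13.7%) and 1532 of 10239 genes tested (15.0%). These shares are a description of letters in the windows and were not tested.

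**Figure D2:**
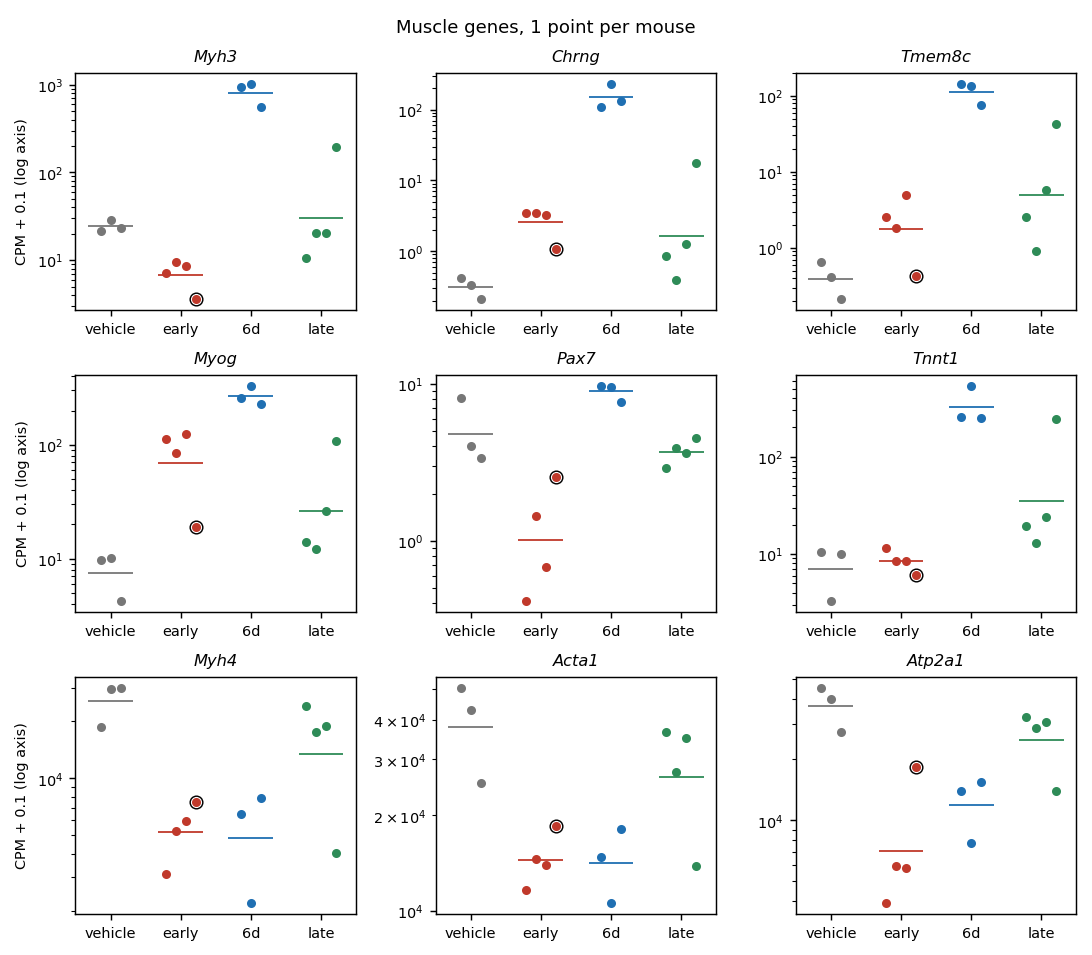
CPM + 0.1 of 9 muscle genes on log axes, 1 point per mouse in vehicle, early, 6d and late, with lines at the geometric means and a ring around early replicate 4. Myh3, Chrng, Tmem8c and Tnnt1 sit highest in the 3 mice at 6d, with late replicate 4 the nearest to them, while Myh4, Acta1 and Atp2a1 overlap between early and 6d below all vehicle mice.

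Few adult contractile genes were called between the times. Of 45 adult sarcomere genes tested, 4 were higher at 6d and none was lower (median 0.32), and both group means lay below the vehicle mean for 32 of the 45. The called members were Tnnt1, which the embryonic list also holds, Myom3, Lmod3 and Obsl1. Acta1, the adult skeletal actin, had 11636 to 18457 CPM at early and 10593 to 18084 CPM at 6d, against 25343 to 50506 CPM in vehicle (-0.02 ± 0.47, adjusted p = 0.985). Myh4, the fast IIb myosin, had 3135 to 7456 CPM at early, 2194 to 7848 CPM at 6d and 18762 to 30127 CPM in vehicle (0.01 ± 0.53, adjusted p = 0.991). The 6d mice differed among themselves, since replicate 2 had the lowest Myh4 and the highest Myh3, and replicate 3 the highest Myh4 and the lowest Myh3. Late replicates 1 to 3 stood at 17513 to 23969 CPM of Myh4 and late replicate 4 at 4048 CPM.

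Calcium handling genes had 1 member of 29 higher (median 0.42), and both group means were below vehicle for 24 of them. The called gene was Casq2, the cardiac and slow-fiber calsequestrin, at 17.2 to 84.7 CPM at early and 178 to 289 CPM at 6d (2.62 ± 0.53, adjusted p = 0.0284). Atp2a1, the fast calcium pump, had 3899, 5958, 5780 and 18388 CPM at early and 13966, 7678 and 15479 CPM at 6d. Early replicates 1 to 3 lay below all 6d mice and replicate 4 above all of them (0.54 ± 0.64, adjusted p = 0.647). Without early replicate 4, 9 of the 29 genes were higher at 6d, among them Pvalb, the calcium buffer parvalbumin (1.47, adjusted p = 0.0146).

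Genes of energy metabolism lay below vehicle at both times. None of 78 respiratory chain genes, 25 tricarboxylic acid cycle genes or 29 fatty acid oxidation genes was called in either direction by edgeR, with medians of 0.22, 0.19 and 0.09, and DESeq2 called 0, 0 and 2 of them, both lower. Both group means lay below vehicle for 73 of the 78, 25 of the 25 and 26 of the 29. Cox7a1, the muscle form of a cytochrome oxidase subunit, had 39.1, 70.3, 54.8 and 235 CPM at early, 136, 70.8 and 148 CPM at 6d and 217 to 494 CPM in vehicle (0.24 ± 0.61, adjusted p = 0.842). Without early replicate 4 its change was 1.11 (adjusted p = 0.0308), and 2 of the 78 genes were then called higher. Hk2, a hexokinase that is induced by low oxygen and insulin, was the lone called member of 36 glycolysis and glycogen genes, with 402 to 1540 CPM at early and 162 to 317 CPM at 6d (-1.999 ± 0.48, adjusted p = 0.0429). Its vehicle level was 550 to 721 CPM, above all 6d mice. Hk2 kept its call in 1 of the 7 fits with 1 mouse left out. None of the 36 genes was called without early replicate 1 or 3 or any 6d mouse. Without early replicate 4, 2 of the 36 were higher and 9 lower.

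Regulators of muscle mass were mixed, with 3 of 27 members higher, 2 lower and a median of 0.03. Igf1, the growth factor of repair macrophages and muscle, rose from 35.7, 66.4, 104 and 56.3 CPM to 254, 295 and 199 CPM (1.93 ± 0.34, adjusted p = 0.0179). Its receptor Igf1r went the other way, from 67.8 to 154 CPM to 36.8 to 44.1 CPM (-1.32 ± 0.28, adjusted p = 0.0328). Fstl1, a secreted follistatin relative, rose from 130 to 362 CPM to 781 to 1234 CPM (2.15 ± 0.37, adjusted p = 0.0175). The ubiquitin ligase Fbxo32 (atrogin-1) was at 244 to 674 CPM at early and 254 to 699 CPM at 6d (-0.22 ± 0.44, adjusted p = 0.796), and myostatin, Mstn, at 14.7 to 61.8 and 7.68 to 33.2 CPM (-0.60 ± 0.59, adjusted p = 0.574).

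Matrix genes had many calls at 6d. Of 43 matricellular, crosslinking and fibrosis genes, 16 were higher and none was lower (median 1.12), and without early replicate 4 the count was 22 higher and 4 lower. It was 24 higher without early replicate 3 and 10 to 15 without any other mouse, and 2 with the gland score as a covariate. Postn, which encodes periostin, a matrix protein of healing tissue (mm9 chr3:54165031-54194961, + strand), had 476, 610, 727 and 291 CPM at early and 8534, 8477 and 4571 CPM at 6d (3.77 ± 0.46, adjusted p = 0.00557). Early mice lay within the vehicle range of 18.5 to 730 CPM, and every 6d mouse was above it. Fbn2, the fetal fibrillin, rose from 1.498 to 2.61 CPM to 15.9 to 37.5 CPM (3.96 ± 0.36, adjusted p = 0.00215). The microfibril genes Mfap4 and Mfap2, the thrombospondin gene Thbs2, elastin (Eln) and the smooth muscle actin gene Acta2 of myofibroblasts were also called, with log2 fold changes of 3.96, 3.73, 3.39, 2.66 and 1.80, and were picked after their values were seen. Tnc and Lox, known injury genes of this list, were not called. Tnc, tenascin C, had 195, 343, 584 and 50.4 CPM at early and 2457, 2411 and 1306 CPM at 6d, but its change of 2.81 ± 0.72 had an adjusted p of 0.0506 and passed when early replicate 4 was left out and with DESeq2. Lox, a collagen crosslinking enzyme, was already at 119 to 303 CPM in early replicates 1 to 3, at 29.0 CPM in replicate 4 and at 186 to 294 CPM at 6d (0.67 ± 0.63, adjusted p = 0.557).

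Collagen genes rose in part. Of 11 fibrillar collagens 5 were higher (median 1.64), and of 30 other collagens 9 were higher (median 0.80), with none lower in either list. The 5 fibrillar calls fell to 0 higher without early replicate 1 or 2 or 6d replicate 1 or 2 and to 1 without 6d replicate 3, and they were 2 in the fits over 14 or 31 libraries and 0 with the gland score as a covariate. The 9 other collagens became 2 to 11 when 1 mouse was left out, fewest without 6d replicate 2. Col3a1, the type III chain of young scar, had 1311, 2075, 3327 and 923 CPM at early and 8770, 8610 and 5632 CPM at 6d (2.01 ± 0.50, adjusted p = 0.0489). Col1a1, the main type I chain, had 1560, 1918, 2688 and 958 CPM at early and 6700, 6540 and 3423 CPM at 6d, and the non-overlapping groups differed by 1.64 ± 0.45 (adjusted p = 0.0618, and 0.0238 without early replicate 4). Col5a1, which sets fibril diameter, rose from 121 to 395 CPM to 857 to 1603 CPM (2.54 ± 0.45, adjusted p = 0.0192). Col12a1, a collagen at fibril surfaces, rose from 78.5 to 186 CPM to 330 to 744 CPM (2.27 ± 0.39, adjusted p = 0.0167), and Emid2, the type XXVI chain, from 1.13 to 1.81 CPM to 7.67 to 16.2 CPM (3.21 ± 0.33, adjusted p = 0.00348). The basement membrane chain Col4a1 was at 414 to 1023 CPM at early and 807 to 917 CPM at 6d (0.17 ± 0.33, adjusted p = 0.791).

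Small proteoglycans were split, with 2 of 12 higher, 1 lower and a median of -0.03. Aspn, asporin, rose from 85.3, 119.6, 126 and 102 CPM to 1013, 815 and 543 CPM (2.87 ± 0.27, adjusted p = 0.00240). Omd, osteomodulin, which is made mainly in bone, fell from 7.17 to 11 CPM to 2.02 to 4.44 CPM (-1.44 ± 0.32, adjusted p = 0.0352). Dcn, decorin, was at 368 to 1220 CPM at early and 567 to 750 CPM at 6d (-0.16 ± 0.40, adjusted p = 0.845). None of 21 fibroblast and progenitor markers was called (median 0.37). Pdgfra, their receptor marker, had 40.4 to 98.4 CPM at early and 83.7 to 96.6 CPM at 6d (0.41 ± 0.28, adjusted p = 0.392), and edgeR without early replicate 4 called 4 of the 21 higher.

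Proteases changed in both directions, with 10 of 31 metalloproteinase and inhibitor genes higher and 4 lower (median 0.52). Leaving out 1 mouse gave 3 to 13 higher and 0 to 7 lower, with no lower gene without early replicate 2 or any 6d mouse. The lower 4 were Mmp13, Mmp3, Mmp8 and Mmp9. Mmp13, a collagenase of bone and injured tissue, had 90.5, 221, 192 and 32.5 CPM at early and 10.9, 15.0 and 9.88 CPM at 6d (-3.49 ± 0.65, adjusted p = 0.0219). In vehicle it was at 73.0, 0.239 and 81.9 CPM and followed bone genes across the libraries outside this comparison, with r = 0.91 over 24 libraries that share depth and dissection. Mmp3, stromelysin, fell from 4.21 to 17.5 CPM to 1.34 to 1.90 CPM (-2.72 ± 0.49, adjusted p = 0.0197). Adamts14, a procollagen processing enzyme, rose from 3.32 to 9.08 CPM to 18.3 to 40.2 CPM (2.48 ± 0.39, adjusted p = 0.0133). Timp1, an inhibitor induced by injury, was at 132, 213, 348 and 8.66 CPM at early and 59.4 to 88.6 CPM at 6d (-1.19 ± 0.90, adjusted p = 0.454), and passed without early replicate 4 (-1.59, adjusted p = 0.0115).

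Some macrophage genes rose at 6d. Of 26 macrophage identity genes 5 were called higher and none lower (median 0.62), and 21 of the 26 had a change above 0. Csf1r, the receptor for the macrophage growth factor, had 50.3, 57.1, 94.8 and 71.1 CPM at early and 132, 212 and 123 CPM at 6d (1.19 ± 0.28, adjusted p = 0.0412). Emr1, a macrophage surface antigen, rose from 18.5 to 35.8 CPM to 52.1 to 88.6 CPM (1.25 ± 0.27, adjusted p = 0.0330). Cx3cr1, the fractalkine receptor of monocyte-derived and resident macrophages, rose further, from 7.16 to 10.9 CPM to 32.4 to 76.6 CPM (2.55 ± 0.29, adjusted p = 0.00497). The 5 calls became 7 without early replicate 3 and 6 without early replicate 4, but 1 without early replicate 1 or 2 or 6d replicate 1 or 2, 2 without 6d replicate 3, and 0 in the fit over 14 libraries and with the gland score as a covariate.

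Genes of lipid-handling repair macrophages had 4 of 23 members higher and none lower (median 0.40). Gpnmb, a glycoprotein of phagocytes that clear debris, had 16.5, 23.5, 38.6 and 11.7 CPM at early and 167, 259 and 94.3 CPM at 6d (2.94 ± 0.47, adjusted p = 0.0137). Apoe, the lipid carrier, named after its values were seen, rose from 337 to 952 CPM to 1575 to 3118 CPM (2.00 ± 0.42, adjusted p = 0.0328). Trem2, a lipid receptor, had non-overlapping groups of 5.05 to 18.7 and 23.0 to 53.8 CPM but did not pass (1.66 ± 0.44, adjusted p = 0.0581). With DESeq2, 8 of the 23 were called higher, while none was without early replicate 2 or 6d replicate 1 or 2 or with the gland score as a covariate, and 1 was in the fit over 14 libraries.

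Of 18 alternative activation and resident macrophage genes 2 were called lower and 1 higher (median -0.75). Arg1, arginase, had 179, 238, 517 and 10.1 CPM at early and 10.7, 22.8 and 6.05 CPM at 6d (-4.16 ± 1.16, adjusted p = 0.0660). Early replicates 1 to 3 were far above all 6d mice and replicate 4 was within their range. Without that mouse Arg1 passed (-4.56, adjusted p = 0.00189), and 8 of the 18 genes were lower and 2 higher. None of the 18 was called without early replicate 2 or 6d replicate 1 or 2. Without early replicate 1, 1 was lower, without early replicate 3, 1 was lower and 1 higher, and without 6d replicate 3, 2 were lower. Mrc1, the mannose receptor, was at 74.7 to 195 and 53.7 to 86.7 CPM (-0.77 ± 0.34, adjusted p = 0.195), and Cd163, a scavenger receptor, at 24.1 to 45.3 and 7.57 to 19.6 CPM (-1.38 ± 0.39, adjusted p = 0.0665). The eosinophil chemokine Ccl24 fell from 3.21 to 14.6 CPM to 0.808 to 1.56 CPM (-2.50 ± 0.60, adjusted p = 0.0444), and Sepp1, the selenium carrier, rose from 349 to 561 CPM to 880 to 1074 CPM (1.05 ± 0.24, adjusted p = 0.0391). Ccl24 and Sepp1 each kept their call in 2 of the 7 fits with 1 mouse left out.

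Some antigen presentation genes rose. Of 10 MHC class II genes 5 were higher and none was lower (median 1.22), and the groups did not overlap for 9 of the 10. H2-Eb2, which was not called, met the count minimum through the 6d libraries alone, so its direction was set by that minimum. H2-Aa had 37.7, 43.1, 77.7 and 84.9 CPM at early and 155, 189 and 133 CPM at 6d (1.39 ± 0.31, adjusted p = 0.0375), and Cd74, the invariant chain, had 101 to 218 and 328 to 448 CPM (1.26 ± 0.27, adjusted p = 0.0337). All 5 calls were lost when early replicate 1 or 2 or any 6d mouse was left out, in the fit over 14 libraries, with the gland score as a covariate and when the 6d mice were compared with early replicate 3 alone, where the median was 0.79. Among 18 dendritic cell genes 3 were higher (median 0.57), and 1 without early replicate 1 or 2 or 6d replicate 1 or 2, with Cd83, an activation marker, rising from 3.14 to 5.95 CPM to 17.2 to 23.4 CPM (2.21 ± 0.26, adjusted p = 0.00497) and Itgax (CD11c) from 2.15 to 5.89 CPM to 10.6 to 17.2 CPM (1.67 ± 0.36, adjusted p = 0.0336). Pattern receptors had 3 of 26 higher (median 0.41). Clec7a, dectin-1, rose from 4.96 to 12.3 CPM to 35.0 to 63.9 CPM (2.72 ± 0.33, adjusted p = 0.00586), whereas Tlr2 (0.82 ± 0.35, adjusted p = 0.183) and Tlr4 (-0.76 ± 0.37, adjusted p = 0.235) did not pass.

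Lymphocyte genes were near the limit of detection, so that 21 of 40 T and NK cell genes were tested. Of these 4 met the count minimum through the 6d libraries alone, among them the called genes Gzmd and Gzme, so the count over the tested genes supports nothing. The other called genes were Cd4 and the costimulatory receptor gene Cd28. Cd4 had 1.07, 1.67, 0.743 and 0.562 CPM at early and 7.73, 10.1 and 5.45 CPM at 6d (2.95 ± 0.42, adjusted p = 0.00947), while the T cell receptor component Cd3e held 5 counts in all early libraries and 22 in all 6d libraries. Cd4 is also made by some macrophages. The granzyme genes Gzmd and Gzme, proteases of killer cells, lie beside each other (mm9 chr14:56748393-56751445 and chr14:56736456-56739468, - strand). Gzmd had 0 counts in every early library and 6.44, 5.62 and 3.13 CPM at 6d, at least 29.4-fold higher against a floor of 3 counts per library. Gzme had 3 counts at early and 448 at 6d, a ratio of 166 with an exact 95% counting interval of 56.4 to 807. Both were also absent from vehicle, and late replicate 4 had 3.47 CPM of Gzmd and 4.60 CPM of Gzme. These genes belong to a cluster of close copies, so reads may have been split among them. Gzmb, the common granzyme, was at 0.106 to 0.515 and 0.656 to 1.82 CPM (2.22 ± 0.67, adjusted p = 0.0817). B cell genes were mixed, with 2 of 9 higher (median -0.77), and the called members were Cd22 and Cd72. Cd22, a B cell receptor inhibitor, rose from 0.515 to 2.34 CPM to 4.44 to 10.5 CPM (2.43 ± 0.50, adjusted p = 0.0309). Cd79a, a defining B cell gene, was at 0.314 to 3.56 CPM and then 0.243 to 0.258 CPM (-2.47 ± 0.88, adjusted p = 0.124).

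Of 26 interferon-stimulated genes 1 was higher, Cxcl9, from 0.879 to 3.37 CPM to 6.05 to 18.3 CPM (2.46 ± 0.50, adjusted p = 0.0282), with a median of 0.49. Cxcl10, a related chemokine, was at 2.85 to 9.86 and 2.72 to 10.8 CPM (0.12 ± 0.53, adjusted p = 0.918), and Ifit3 at 5.52 to 10.2 and 8.77 to 32.5 CPM (1.26 ± 0.42, adjusted p = 0.103). Of 17 complement genes 1 was higher, C1qc, made by macrophages, from 54.5 to 123 CPM to 138 to 277 CPM (1.38 ± 0.34, adjusted p = 0.0482). C3 was at 73.6 to 265 and 51.5 to 133 CPM (-1.11 ± 0.50, adjusted p = 0.206). Of 30 lysosomal genes 1 was higher, Man2b1, a lysosomal mannosidase (1.15 ± 0.20, adjusted p = 0.0170), with a median of 0.34. Ctsd, the protease cathepsin D, was at 2275, 2156, 2402 and 851 CPM at early and 1549 to 2520 CPM at 6d (0.09 ± 0.41, adjusted p = 0.922).

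**Figure D3:**
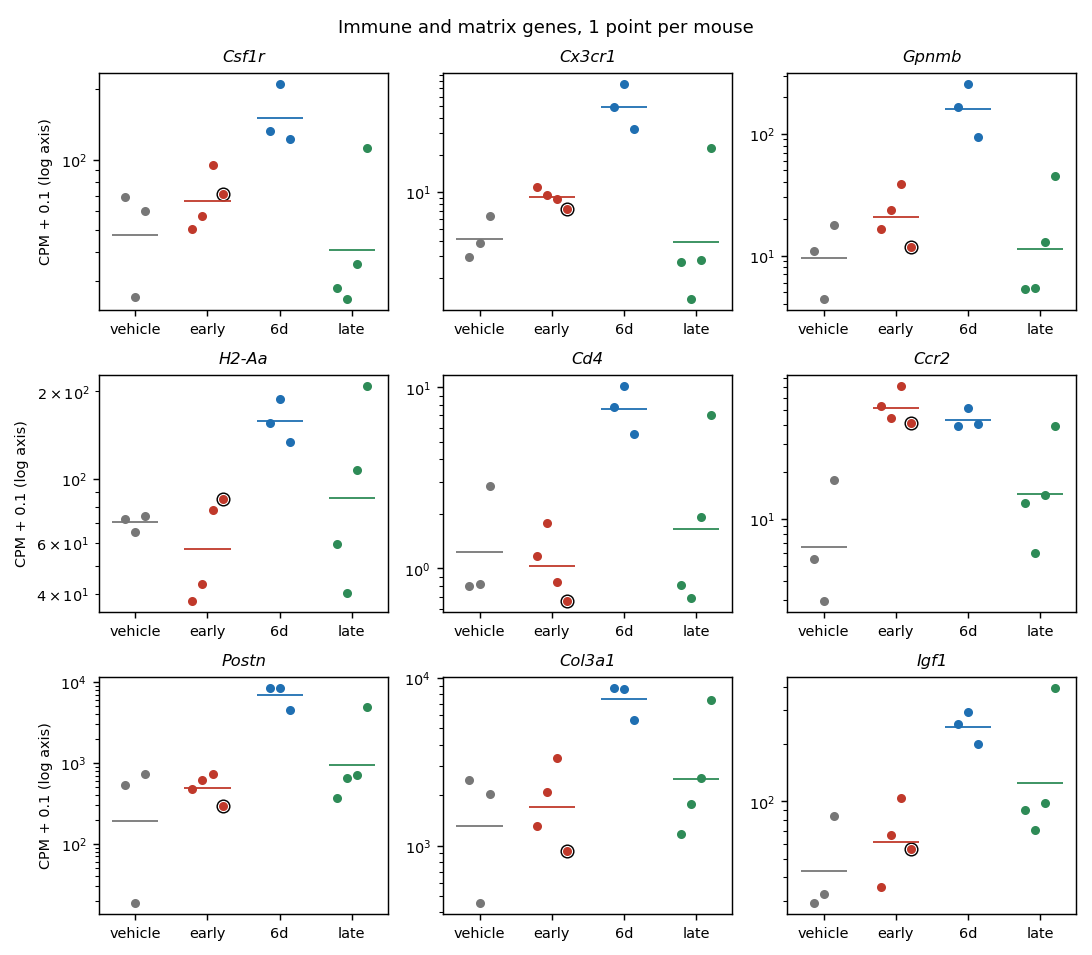
CPM + 0.1 of 9 immune, matrix and growth factor genes on log axes, 1 point per mouse, with lines at the geometric means and a ring around early replicate 4. Csf1r, Cx3cr1, Gpnmb, H2-Aa, Cd4, Postn, Col3a1 and Igf1 lie higher in all 3 mice at 6d than in all 4 early mice, whereas Ccr2 overlaps.

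Few inflammatory chemokine genes passed the test with all mice, and the early group was not uniform. The 7 neutrophil chemokines tested had a median of -4.44, all below 0, and 1 was called lower. Of the 7, Cxcl3, which was not called, met the count minimum through the early libraries alone, so its direction was set by that minimum. Without early replicate 4 all 7 were called lower, as they were with DESeq2 on all mice. None was called without 6d replicate 1 or 2, and 1 was lower when early replicate 1, 2 or 3 or 6d replicate 3 was left out. Cxcl2 (mm9 chr5:91332897-91334935, + strand), a ligand of the neutrophil receptor Cxcr2, had 12.7, 13.5, 27.1 and 0.0936 CPM at early and 0.412, 0.768 and 0.252 CPM at 6d (-4.76 ± 1.38, adjusted p = 0.0726). Cxcl5, another such ligand, had 12.2, 21.0, 32.4 and 0.608 CPM at early and 0.824, 0.970 and 0.454 CPM at 6d (-4.44 ± 1.14, adjusted p = 0.0519). In both genes early replicates 1 to 3 were above all 6d mice, while replicate 4 was below them for Cxcl2 and within their range for Cxcl5. Vehicle levels of both were at 0 to 0.112 CPM. The called gene Ppbp, a platelet chemokine, had 19.8, 28.3, 61.8 and 8.66 CPM at early and 0.252 to 0.849 CPM at 6d (-5.69 ± 0.81, adjusted p = 0.00964), with vehicle at 13.4, 0.398 and 66.9 CPM, and followed the bone gene score described below for S100a8 with r = 0.84.

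The Cxcl2 promoter is shown because the gene separates early replicates 1 to 3 from every other mouse. It is the RefSeq sequence of GRCm38.p6, chr5:90903649-90903898 (+ strand), 5′ to 3′ over the 250 bases before the start. Capitals mark the kappaB motif, a form of the site bound by NF-kB, searched on both strands.
Cxcl2: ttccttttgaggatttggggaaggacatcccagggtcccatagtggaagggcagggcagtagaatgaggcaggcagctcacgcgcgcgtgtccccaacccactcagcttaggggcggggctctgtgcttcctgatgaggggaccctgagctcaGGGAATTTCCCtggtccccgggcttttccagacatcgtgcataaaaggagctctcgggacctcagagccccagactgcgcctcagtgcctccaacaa
The capitals cover 2 overlapping matches, which begin 97 and 96 bases before the start. The motif occurs in 1.21% of all windows. By gene it was found for 6 of 227 lower DEGs (2.64%), 1 of 295 higher DEGs (0.339%) and 153 of 10239 genes tested (1.49%), which is a description only.

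Of 15 monocyte chemokine genes, counted with the receptor Ccr2, 3 were lower and none was higher (median -1.95). Ccl2, the main monocyte attractant, had 39.4, 35.5, 64.9 and 6.18 CPM at early and 3.30, 10.5 and 1.97 CPM at 6d (-2.79 ± 0.85, adjusted p = 0.0823). Ccl7, its neighbor, had 34.6, 32.6, 60.4 and 2.57 CPM and 4.53, 8.08 and 2.02 CPM (-2.73 ± 0.93, adjusted p = 0.110). Both passed without early replicate 4 (adjusted p = 0.00658 and 0.00333), where 8 of the 15 were lower and 1 was higher. None of the 15 was called without 6d replicate 1 or 2. Without early replicate 1 or 2 or 6d replicate 3, 1 was lower, and without early replicate 3, 3 were lower and 1 higher. Chi3l3, Ccl6 and Ccl9, picked after their values were seen, were called with all mice. Chi3l3, a chitinase-like protein that draws white blood cells, fell from 4.40 to 17.6 CPM to 0.309 to 0.889 CPM (-4.03). In vehicle Chi3l3 was at 17.7, 0.478 and 74.9 CPM, and it followed the bone gene score described below for S100a8 with r = 0.82. The chemokine genes showed 58.8 to 319 CPM falling to 25.3 to 47.4 CPM for Ccl6 and 53.2 to 217 CPM falling to 25.0 to 40.3 CPM for Ccl9. The receptor Ccr2 stayed at 41.0 to 71.6 and 39.4 to 51.0 CPM (-0.27 ± 0.22, adjusted p = 0.487), above the vehicle range of 2.87 to 17.7 CPM in both groups.

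Acute cytokine and feedback genes had 1 of 21 members lower and a median of -0.82, and 7 lower and 1 higher without early replicate 4. Il6 had 1.44, 3.48, 11.5 and 0 CPM at early and 0.504 to 0.618 CPM at 6d (-2.82 ± 1.35, adjusted p = 0.232). Il1b was at 8.73, 8.77, 15.7 and 1.03 CPM and 2.37, 8.33 and 5.60 CPM (-0.65 ± 0.77, adjusted p = 0.646). Socs3, which damps Il6 signalling, was at 122, 181, 174 and 12.1 CPM and 19.4 to 33.6 CPM (-2.21 ± 0.77, adjusted p = 0.118, and 0.00054 without early replicate 4). The called gene was Nfkbia, the NF-kB inhibitor, at 80.5 to 109 CPM at early, 40.3 to 47.1 CPM at 6d and 57.7 to 110 CPM in vehicle (-1.11 ± 0.15, adjusted p = 0.00750).

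Neutrophil granule and identity genes were the inflammatory list with the most calls, 12 of 19 lower and none higher (median -3.25), of which 2 met the count minimum through the early libraries alone. The calls fell to 0 without 6d replicate 2, 2 without 6d replicate 1, 3 without 6d replicate 3 or early replicate 2, 8 without early replicate 1 or 3, and 5 and 4 in the fits over 14 and 31 libraries, and rose to 15 without early replicate 4. S100a8, an abundant neutrophil protein, had 11.7, 48.3, 83.7 and 27.8 CPM at early and 3.04, 3.96 and 7.41 CPM at 6d (-3.16 ± 0.69, adjusted p = 0.0349). Retnlg had 0.879 to 5.29 CPM and 0.162 to 0.353 CPM and reached the count minimum in no 6d library. These genes were not low in vehicle, where S100a8 was at 92.9, 2.15 and 302 CPM, and the early mean lay below the vehicle mean for 15 of the 19. They moved with bone and red cell genes, which a dissection beside the jaw bone could hold. Over 24 libraries outside this comparison, S100a8 followed the bone gene score with r = 0.85. Of 15 bone genes 5 were lower at 6d and none higher (median -1.77), and of 9 erythroid genes 6 were lower and none higher (median -3.57). The bone calls were 0 without 6d replicate 2 or 3, and 2 of the 5 bone and 1 of the 6 erythroid calls met the count minimum through the early libraries alone. The score of the bone list, a mean of log2 CPM, was 2.98 to 4.23 at early and 2.04 to 2.65 at 6d, and that of the erythroid list 4.32 to 5.28 and 2.19 to 2.43. Alas2, the heme enzyme of red cell precursors, fell from 10.2 to 30.2 CPM to 1.29 to 1.78 CPM (-3.59 ± 0.42, adjusted p = 0.00497). Bglap, osteocalcin, held 288 counts at early and 4 at 6d. The part of bone and marrow in the neutrophil result was not tested. Il1r2, a neutrophil decoy receptor picked after its values were seen, did not follow bone in the same way (r = 0.10), and was at 9.42, 12.2, 17.0 and 1.92 CPM at early, 0.454 to 1.41 CPM at 6d and 0.867 to 2.58 CPM in vehicle (-3.25 ± 0.76, adjusted p = 0.0414).

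Stress and immediate early genes had 5 of 28 members lower, none higher and a median of -1.39, and 18 lower and 2 higher without early replicate 4. Without 6d replicate 2 none was lower, and without any other mouse 1 to 4 were. Hspa1a, the inducible heat shock protein 70 (mm9 chr17:35106144-35109069, - strand), had 191, 58.8, 102 and 5.94 CPM at early and 1.70, 1.98 and 3.43 CPM at 6d (-5.23 ± 1.10, adjusted p = 0.0317). Even the lowest early mouse was above all 6d mice, which lay below all vehicle mice at 3.68 to 7.47 CPM. Its near-identical copy Hspa1b gave -4.70 ± 0.99 (adjusted p = 0.0325), and reads of the pair may have been split between them. Cebpb, a transcription factor of acute inflammation, differed between the groups in every mouse, with 203, 303, 368 and 219 CPM at early and 23.2, 34.3 and 55.0 CPM at 6d (-2.86 ± 0.37, adjusted p = 0.00630). It was again at 111 to 229 CPM in the late mice and at 20.1 to 45.8 CPM in vehicle. Mt2, a metal-binding stress protein, had 469, 485, 560 and 26.7 CPM at early and 30.6 to 54.9 CPM at 6d (-3.14 ± 0.89, adjusted p = 0.0671, and 0.00019 without early replicate 4). Hmox1, heme oxygenase, had 461, 437, 642 and 82.8 CPM and 75.4 to 198 CPM (-1.66 ± 0.65, adjusted p = 0.150).

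The Hspa1a promoter, RefSeq GRCm38.p6 chr17:34972157-34972406 (- strand), is printed 5′ to 3′ because the gene and its copy fell together, and capitals mark GAANNTTC, the core of a heat shock element, which reads the same on both strands.
Hspa1a: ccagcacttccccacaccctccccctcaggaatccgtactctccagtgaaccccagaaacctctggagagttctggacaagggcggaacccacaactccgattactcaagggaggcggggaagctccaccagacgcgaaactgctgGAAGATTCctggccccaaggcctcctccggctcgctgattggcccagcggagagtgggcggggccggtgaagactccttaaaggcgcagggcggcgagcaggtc
The match begins 104 bases before the start. The window of Hspa1b differs from it at 3 of 250 bases and holds the match at the same distance. The motif occurs in 6.69% of all windows and, by gene, in 13 of 227 lower DEGs (5.73%), 13 of 295 higher DEGs (4.41%) and 642 of 10239 genes tested (6.27%).

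**Figure D4:**
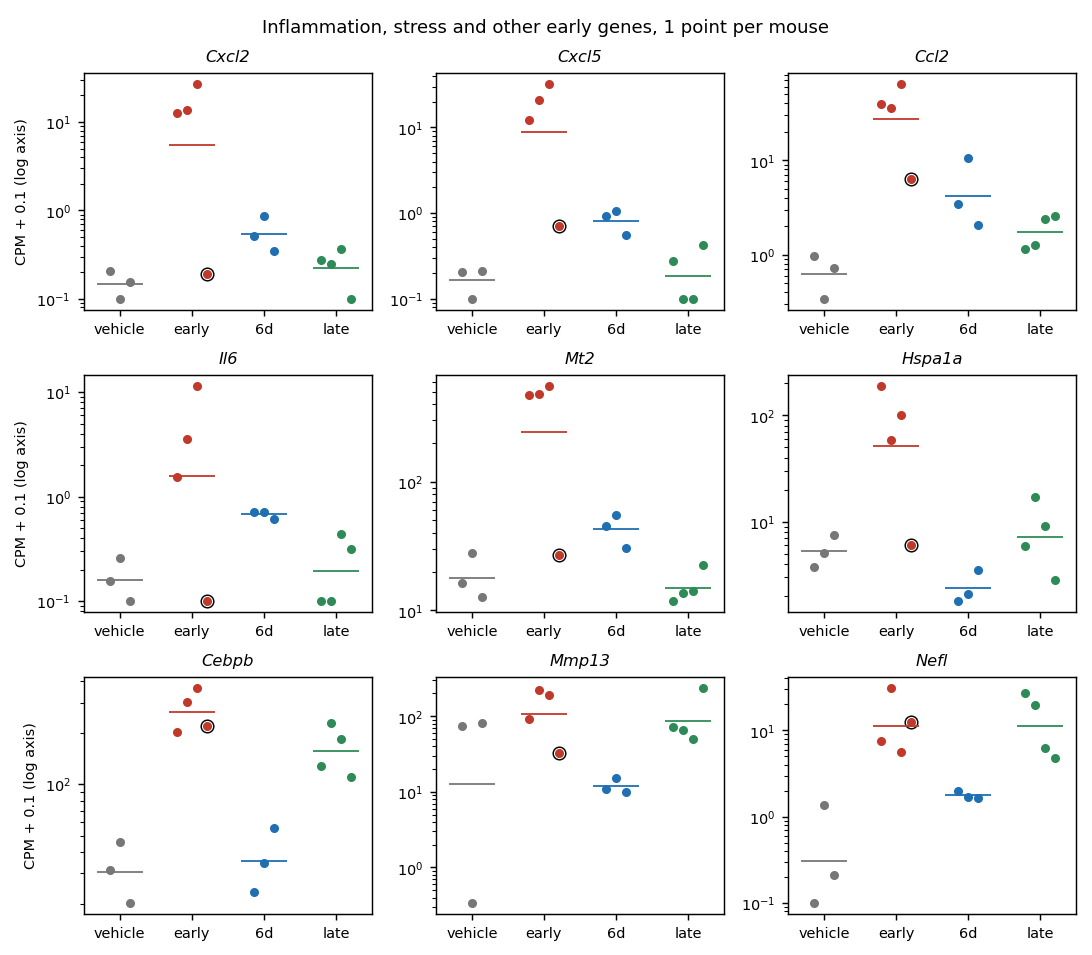
CPM + 0.1 of 9 inflammation, stress and other genes on log axes, 1 point per mouse, with lines at the geometric means and a ring around early replicate 4. For Cxcl2, Cxcl5, Il6, Mt2 and Hspa1a early replicates 1 to 3 lie above all mice at 6d and replicate 4 lies far below them, while Cebpb, Mmp13 and Nefl separate all 4 early mice from all 3 at 6d.

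No cell cycle gene passed the test. None of 40 cell cycle genes was called in either direction by edgeR or DESeq2, and the median was -0.03. Mki67 had 81.6, 104, 161 and 27.3 CPM at early and 108, 102 and 57.1 CPM at 6d (-0.06 ± 0.52, adjusted p = 0.956). Top2a (0.24 ± 0.52, adjusted p = 0.821) and Cdk1 (-0.14 ± 0.56, adjusted p = 0.909) did not pass either.

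Genes of nerve, vessel and fat changed in few members. Of 20 Schwann cell and myelin genes 3 were lower and 1 was higher (median -0.79). None was lower without early replicate 1 or 2 or 6d replicate 1 or 2, and 4 or 5 were without any other mouse. With the gland score as a covariate none of the 20 was called and the median was -0.19. With 6d set against early replicate 3 alone the median was -0.23. Mal, a myelin protein, fell from 17.0 to 26.3 CPM to 3.60 to 12.4 CPM (-1.60 ± 0.40, adjusted p = 0.0484), and Ngfr, the low-affinity receptor that Schwann cells regain after nerve injury, rose from 3.45 to 5.49 CPM to 8.81 to 18.3 CPM (1.68 ± 0.30, adjusted p = 0.0193). Sox10, which defines Schwann cells but is also made by salivary gland, was at 36.5, 47.0, 5.74 and 47.0 CPM at early, low in the early mouse without gland reads, and at 3.68 to 8.88 CPM at 6d (-2.56 ± 0.70, adjusted p = 0.0612). None of 28 pain mediators and neurotrophic factors was called (median -0.23), though DESeq2 called 3 lower. The bradykinin receptor gene Bdkrb1 was at 0.0936 to 1.17 and 0.605 to 1.13 CPM (0.18 ± 0.68, adjusted p = 0.899).

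Of 28 vascular endothelial genes 2 were lower (median -0.34), and the larger change was that of Lyve1, a lymphatic and resident macrophage marker, from 9.30 to 36.5 CPM to 2.63 to 7.11 CPM (-2.32 ± 0.56, adjusted p = 0.0444). Apln, a peptide of sprouting vessels, had 171, 141, 164 and 8.70 CPM at early and 10.6 to 15.4 CPM at 6d (-3.22 ± 0.87, adjusted p = 0.0592). Pecam1 was at 181 to 387 and 190 to 224 CPM (-0.57 ± 0.27, adjusted p = 0.221). None of 31 adipocyte genes was called (median -0.01), and Adipoq was at 8.44 to 33.8 and 8.29 to 19.9 CPM (-0.11 ± 0.51, adjusted p = 0.920). Of 19 clock genes 2 were lower (median -0.08). Per1 fell from 28.5, 96.7, 95.0 and 84.7 CPM to 15.7, 17.1 and 20.2 CPM (-2.11 ± 0.41, adjusted p = 0.0248), and Dbp was at 1.43 to 9.55 and 14.5 to 17.6 CPM (1.71 ± 0.54, adjusted p = 0.0893). The hour of dissection was not given.

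The 10 lower DEGs with the largest changes among those whose groups did not overlap were high in early replicates 1, 2 and 4, which held the gland reads, and low or near 0 in replicate 3. Of 21 salivary gland genes tested 14 were lower (median -10.69), of which 11 met the count minimum through the early libraries alone. Pip, a secreted prolactin-induced protein, had 3690, 3006, 27.3 and 10948 CPM at early and 0 to 0.202 CPM at 6d, and 2.28, 7634 and 2712 CPM in vehicle. Smr3a, a salivary prohormone, had 45160, 60064, 9.72 and 70703 CPM at early and 0.567 to 2.42 CPM at 6d (-15.16 ± 3.09, adjusted p = 0.0290). Car6, Bpifa2e, Cst10, Lpo, 2310057J18Rik, Prh1, Abpb and Gm4736 ranged from -13.23 to -15.56, and Prh1 stood apart from the rest, with 0, 0 and 2.02 CPM in vehicle. Lpo, Cst10 and Gm4736 had 1 count each over the 6d libraries, so the fitted change of these genes depends on the prior count. Across the 24 libraries outside the comparison 395 tested genes followed the gland score with r over 0.8, and 123 of them were called lower and none higher. When all genes with this pattern were left out of totals and tests, 462 genes were higher and 222 lower. With 6d set against early replicate 3 alone, whose single library was assumed to vary like the 6d libraries, 343 were higher and 470 lower, and 15 of 24 embryonic isoforms were higher, with a median of 3.29. In that comparison none of the fibrillar collagens, MHC class II genes or lipid and repair macrophage genes was called, 1 of 26 macrophage identity genes was higher, and 11 of 43 matricellular genes were higher and 6 lower.

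A pair of lists came from genes that the study itself had named on these samples, so their direction is not independent evidence. Of 48 such immune genes 13 were higher and none was lower (median 1.01), Gzme having the largest change. Gzme and Tnfsf8 met the count minimum through the 6d libraries alone. Of 19 such lipid genes none was called (median -0.17), and both group means were below vehicle for all 19. DESeq2 called 1 of the 19 higher and 1 lower. Of 15 tendon and cartilage genes 1 was higher, the cartilage matrix gene Cilp, from 33.9 to 97.3 CPM to 419 to 558 CPM (2.94 ± 0.34, adjusted p = 0.00497), and 1 was lower, Sox9, from 20.2 to 28.7 CPM to 10.4 to 11.9 CPM (-1.15 ± 0.17, adjusted p = 0.0117). None of 13 keratinocyte genes (median -0.90) or 9 brown fat genes (median 0.97) was called by edgeR or, for brown fat, by DESeq2, which called 1 keratinocyte gene higher and 1 lower. The remaining names among the 10 largest higher DEGs were R3hdml, which went from 0.0468 to 0.402 CPM to 6.30 to 12.4 CPM and reached the count minimum in no early library, the angiotensin receptor gene Agtr2 with 5 counts at early and 412 at 6d, a ratio of 91.5 with a counting interval of 38.9 to 283, and 1110059M19Rik with 5 and 564 counts, a ratio of 125 with an interval of 53.4 to 387.

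**Figure D5:**
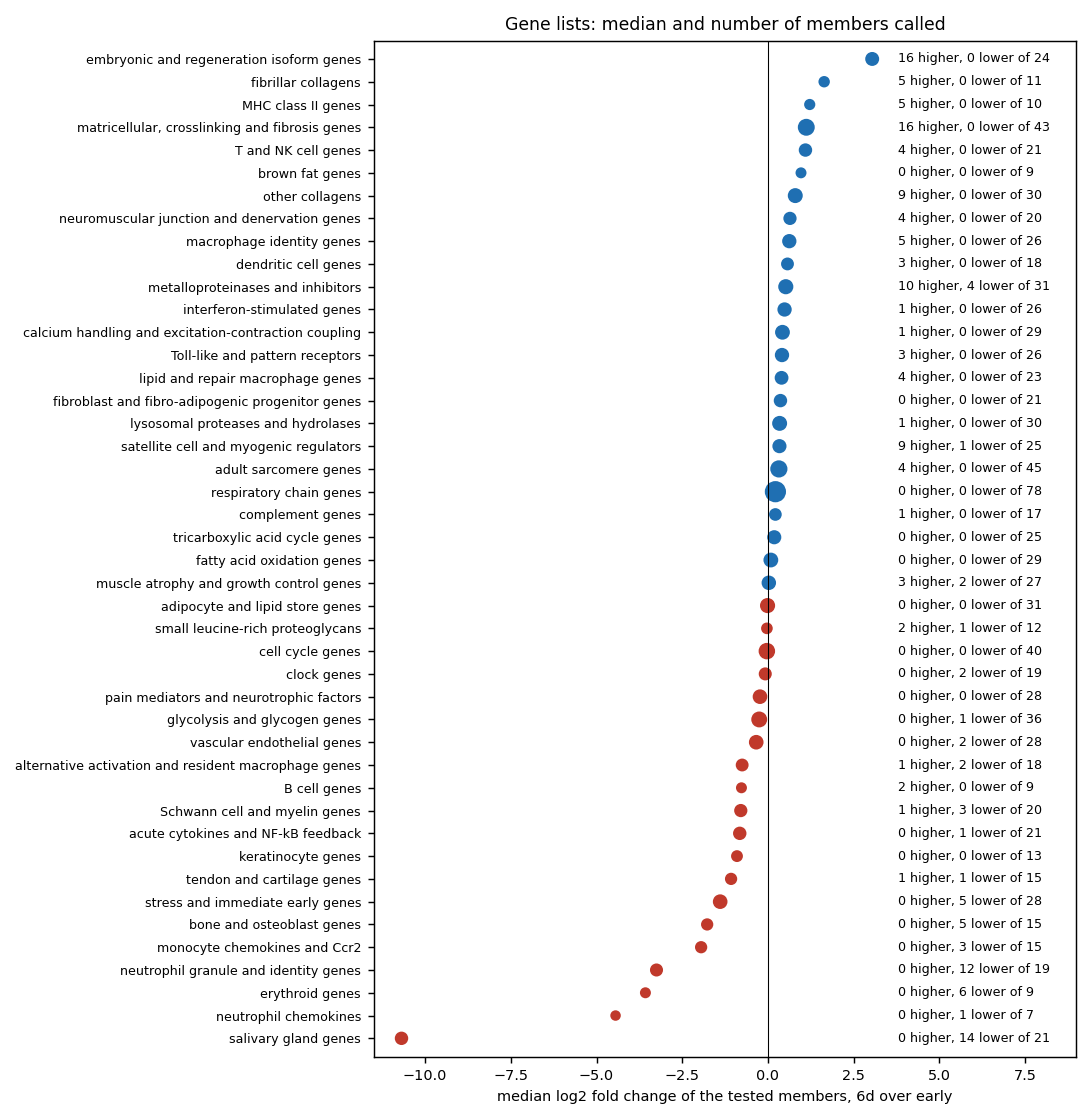
Median log2 fold change of 6d over early for 44 gene lists, 1 point per list, with point area growing with the number of genes tested and the number of DEGs higher and lower at right. Embryonic and regeneration isoforms lead at 3.04 with 16 of 24 higher, and salivary gland genes are lowest at -10.69 with 14 of 21 lower.

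The vehicle levels place these DEGs. Of the 439 higher DEGs, the vehicle mean was nearer to the early mean for 377 and nearer to the 6d mean for 62, and it was below both means for 191. Of the 342 lower DEGs it was nearer to early for 231 and to 6d for 111. In the late group, the mean of replicates 1 to 3 was nearer to the 6d mean than to the vehicle mean for 15 of the 439 higher DEGs, while late replicate 4 was nearer to 6d for 357. Among the 342 lower DEGs, the mean of late replicates 1 to 3 was nearer to 6d for 196 and late replicate 4 for 233. For 15 of the lower DEGs, Cebpb among them, all early and all late libraries lay above all 6d and all vehicle libraries. The named lists and genes here include close copies (the granzymes, the Hspa1 pair and salivary gene families), whose reads may be split, and 65 of the higher and 50 of the lower DEGs overlap an exon of a gene on the other strand, so those levels are uncertain. Since the DEGs were chosen on 6d and early values, these counts are a description.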

How the data were processed

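RNA of whole MM was sequenced as 1 stranded poly(A) library per mouse. Per the labels, the authors aligned reads to mm9 with TopHat2 and counted them per gene with HTSeq; versions, the gene annotation and the strand setting are not given in the sources used here. The deposited files hold raw read counts, and their 5 closing lines, which name no gene, were left out of totals and tests. The members and gene lists were chosen with earlier results of these data known. A gene was tested when 3 or more of the 7 libraries held 10 or more counts of it, and tests were run with edgeR 4.0.16 in R 4.3.3 (TMM factors, quasi-likelihood F-test, Benjamini-Hochberg adjustment), and DESeq2 1.42.0 was an alternative. RPKM values used mm9 exon lengths. Named genes were the 10 largest DEGs in each direction whose groups did not overlap, key genes set per list and the largest called gene of each list in each direction. Other genes are said to be chosen after their values were seen, as were Myom3, Lmod3, Obsl1, Mmp8, Mmp9, Hspa1b, Cebpb, Cd72, Cd28 and Cd3e. Each mouse is a separate replicate. Counting intervals are exact at 95% and cover counting error only. Some genes of the lists are not reported here.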

Additional observations from a re-analysis of the deposited data

Results flagged for a closer look

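Within the 4 early mice, 18 of 154 values examined had 1 mouse set far from the other 3, with a gap beyond the 95% limit of Dixon’s test for 4 values, a size that chance gives in about 1 of 20 groups. Early replicate 4 was high in 12 and low in 3, and early replicate 3 stood out in 3. Counts on genes in early replicate 4 came to 27573542, against 15759560 to 16753167 in the others. Its high values in muscle and mitochondrial genes were 18388 CPM for Atp2a1, 2879 CPM for the calcium release channel Ryr1, 235 CPM for Cox7a1, 526 CPM for Ndufs1, 1114 CPM for Sdha and 945 CPM for Cs. It was also high in Ltf, which encodes lactoferrin, at 298 CPM, in the fat genes Lep and Ucp1 at 4.40 and 7.86 CPM, in the tendon gene Tnmd at 11.8 CPM and in Gzmb at 0.515 CPM. It was low in Chrng at 0.983 CPM, in Mt2 at 26.7 CPM and in Ctsd at 851 CPM. Early replicate 3 was high in Ccl24 at 14.6 CPM and in Gzme at 0.159 CPM, and low in Abpb at 0.319 CPM. For Gzme this was 3 counts against 0 in the other early mice, where any value above 0 would have been flagged.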

How the results depend on the processing

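The number of lower DEGs was 342, and it became 654 with DESeq2, 582 with the replicate block and 222 without the genes that follow the salivary gland score. With that score as a covariate, 22 genes were higher and 53 lower. Leaving out 1 mouse at a time gave 99 to 867 higher and 24 to 674 lower DEGs. The 3 alternatives on gland reads (both of these and 6d against early replicate 3 alone) were chosen after seeing the data. The correlations of the deviations of mice with the same replicate number were -0.19, 0.19 and -0.25. With so few mice these values cannot decide whether replicate numbers paired them. The block on replicate number gave 648 higher DEGs. An early mouse whose number no 6d mouse shares adds nothing to the change in that fit. The block is therefore not separate from leaving that mouse out. Of 2820 values for named genes across the alternatives, 2336 stayed on their side of the threshold, 132 gained a call and 352 lost it. Among the 2336, 91 changed sign while uncalled under both settings. Of 874 list medians 70 moved, and 49 changed sign. The causes were not tested.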

Other observations

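Genes of the neurofilament family, the intermediate filaments of axons, were among the lower DEGs, and were noticed after their values were seen. Nefl had 7.41, 31.3, 5.52 and 12.3 CPM in the early mice and 1.91, 1.58 and 1.56 CPM at 6d (-3.06 ± 0.64, adjusted p = 0.0317). All early mice and all late mice, at 4.66 to 26.7 CPM, were above all 6d mice and above vehicle, at 0 to 1.27 CPM. Their levels share libraries across these comparisons, and no explanation was tested.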
